A study of Homo sapiens with 2 samples.

Results

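The ETS family genes ETV6, ETS1, FLI1, ERG, SPI1, ELF1 and ETS2 were described by the H3K27ac peaks that overlapped their gene bodies or the 20 kb on either side. By this rule 70 of the 52203 peaks of the genome belonged to the 7 genes: 15 to ETV6, 15 to ERG, 13 to ETS1, 11 to FLI1, 7 to SPI1, 6 to ELF1 and 3 to ETS2. H3K27ac, acetylation of histone H3 at lysine 27, is a mark of active promoters and enhancers. Chromatin immunoprecipitation with sequencing (ChIP-seq) located it in LOUCY cells, with no treatment stated. LOUCY is an established human cell line from T-cell acute lymphoblastic leukaemia that is used as a model of its immature, early T-cell precursor form. The data comprised 1 H3K27ac library (54357332 tags kept) and, from the same line, 1 library of input DNA (71932640 tags kept), and a peak is a region where the authors' caller found the ChIP signal above the input. There were no replicates, so the values describe this library pair of 1 cell line, no difference was tested, and neighbouring ranks have no measure of error.

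ETS factors share a DNA-binding domain, the ETS domain, which recognises a GGAA core. In blood, ERG and FLI1 are factors of stem and progenitor cells, and SPI1 (PU.1) directs myeloid and B-cell fates and is shut down as T-cell precursors commit, as worked out in mouse. ETS1 and ELF1 act at many T-cell genes, ETS2 responds to growth factor signals through the MAP kinase pathway, and ETV6 (TEL) is a repressor needed by blood stem cells and recurrently altered in leukaemia. A promoter of an active gene usually carries a peak a few kilobases wide, while long stretches of the mark are typical of genes with clustered enhancers in that cell type. The mark shows where chromatin is acetylated, not how much RNA or protein is made, which was not measured.

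Sequences at the start sites of these genes are shown because the genes differed in whether the mark lay at their 5′ end. The RefSeq promoter set used here, in build GRCh38.p14, held 10 start sites for 4 of the 7 genes (ERG, ELF1, ETV6 and ETS2). Each came with 250 bases before and 50 after the start. ETS1, FLI1 and SPI1 had no entry in this set, though RefSeq lists these genes. ERG is shown at its outermost start (chr21:38660618-38660917, minus strand) and at an inner start 162 kb further into the gene (chr21:38498455-38498754, minus strand). The outermost starts of ETV6 (chr12:11649424-11649723, plus strand) and ETS2 (chr21:38804933-38805232, plus strand) follow. All read 5′ to 3′ on the strand of the gene, and capitals mark GGAA on either strand (TTCC on the strand shown).
ERG outermost start: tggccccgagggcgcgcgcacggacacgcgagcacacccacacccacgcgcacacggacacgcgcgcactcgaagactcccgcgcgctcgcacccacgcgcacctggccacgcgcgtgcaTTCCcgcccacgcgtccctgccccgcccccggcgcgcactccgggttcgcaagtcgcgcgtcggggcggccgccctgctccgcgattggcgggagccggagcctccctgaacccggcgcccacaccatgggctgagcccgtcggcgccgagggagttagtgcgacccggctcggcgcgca
ERG inner start: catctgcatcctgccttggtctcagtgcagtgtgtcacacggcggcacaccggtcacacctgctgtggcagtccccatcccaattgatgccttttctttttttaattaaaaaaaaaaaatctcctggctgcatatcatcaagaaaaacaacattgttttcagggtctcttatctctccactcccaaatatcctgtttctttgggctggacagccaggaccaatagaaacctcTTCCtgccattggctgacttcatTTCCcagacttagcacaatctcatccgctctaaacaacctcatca
ETV6 outermost start: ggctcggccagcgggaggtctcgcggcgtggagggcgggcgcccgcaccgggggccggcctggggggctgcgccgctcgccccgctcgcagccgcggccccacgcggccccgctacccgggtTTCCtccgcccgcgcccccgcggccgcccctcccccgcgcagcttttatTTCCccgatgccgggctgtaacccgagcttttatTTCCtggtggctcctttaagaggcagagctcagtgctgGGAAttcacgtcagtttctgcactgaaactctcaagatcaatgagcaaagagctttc
ETS2 outermost start: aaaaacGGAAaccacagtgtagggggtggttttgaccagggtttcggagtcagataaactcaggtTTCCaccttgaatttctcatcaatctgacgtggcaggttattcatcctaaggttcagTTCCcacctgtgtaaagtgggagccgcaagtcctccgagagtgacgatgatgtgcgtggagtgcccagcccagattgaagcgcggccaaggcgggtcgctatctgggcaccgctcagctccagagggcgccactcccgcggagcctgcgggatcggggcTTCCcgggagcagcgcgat

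The outermost ERG start was the richest of the 10 in G and C, with 77.0% G or C and 53 CpG pairs in 300 bases. Its inner start had 45.7% and 4 CpG pairs, while the outermost starts of ETV6 (69.0%, 33 pairs) and ETS2 (58.0%, 20 pairs) lay between them. Over all 35116 promoters of the RefSeq table the medians were 58.7% and 14 pairs. The GGAA core, searched on both strands with overlaps allowed, had 1 match at the outermost ERG start, 2 at the inner ERG start, 4 at ETV6 and 4 at ETS2. Since 95.5% of all promoters held it, with a median count of 3, its presence does not set these genes apart. The longer letters CCGGAAG (10.3% of all promoters), which contain GGAA, occurred at none of the 10 start sites. TGTGGT, the core bound by RUNX factors (13.1% of all promoters), was found at the outermost ETS2 start alone among the 10. GATAA, the core bound by GATA factors (22.7%), was found at the outermost ETS2 start, at both inner ERG starts near 162 kb, which overlap, and at 1 ELF1 start. A match is a description of letters and not a binding site.

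The peaks at ETS genes were a mixture of many weak, narrow peaks and a few very wide ones. Of the 70 peaks, 15 were 10 kb or wider, 21.4%, against 4.37% of all peaks. These 15 held 71.9% of the 415 kb that the 70 peaks covered together. A fold enrichment over input of 10 or more was reached by 7 of the 70 peaks, against 5.21% of all peaks, and each of the 7 was at least 10 kb wide. They lay at ETV6, ERG and SPI1, with 2 each, and at ELF1, with 1. A fold of 6 or more was found at 14 of the 70 peaks, against 23.2% of all peaks, and 39 peaks or 55.7% had a fold below 3, against 48.2% of all peaks. The caller's -log10 q was 10 or more at 17 of the 70 peaks or 24.3%, against 36.8% of all peaks. The median fold of the 70 peaks was 2.78, against 3.08 over all peaks, and their median width was 2132 bp, against 1670 bp. The middle of the list at these genes was thus lower in fold and higher in width than that of all peaks. All folds are the authors' values, given to the peak as a whole.

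**Figure D1:**
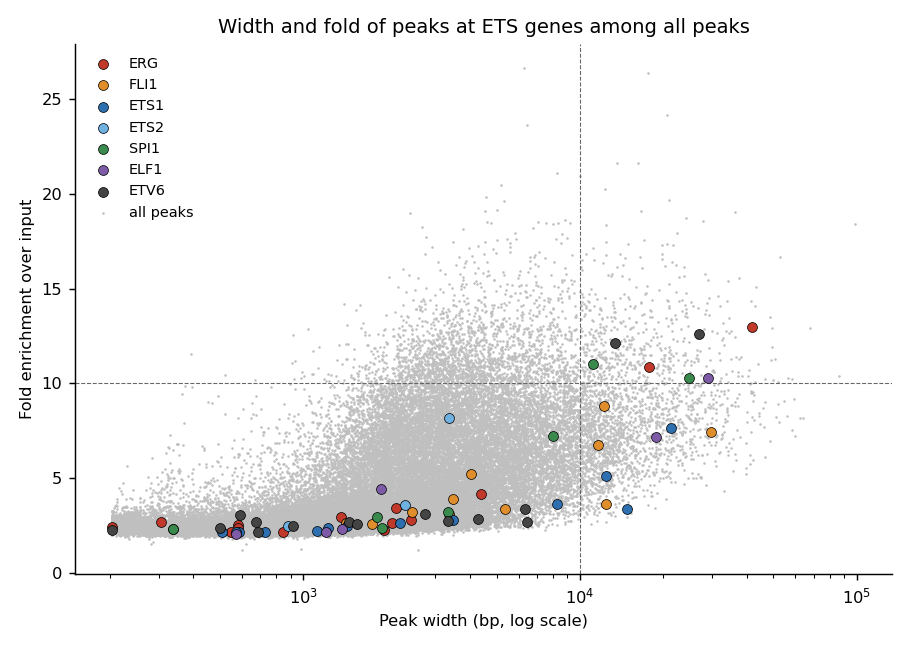
Width (log scale) and fold enrichment over input of the 70 peaks at ETS genes (coloured by gene) and of all 52203 peaks (grey); dashed lines stand at 10 kb and at a fold of 10. The 7 coloured peaks above a fold of 10 all lie right of the 10 kb line, and most of the others sit in the low, narrow part of the grey cloud.

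ERG carried the strongest and the widest peak of the 7 genes, and neither lay at the listed 5′ end. A peak of 41.8 kb (chr21:39838758-39880578 in hg19, as all peaks) had a fold of 13.0 and a -log10 q of 111, which put it 542 by fold and 42 by width among all peaks of the genome. On chromosome 21, with 627 peaks, it was the third widest and ranked 6 by fold. It lay inside the gene, from 153 to 195 kb past the 5′ end. The RefSeq table lists an inner ERG start 162 kb from the outermost one, a distance that falls within this range. The distances come from hg19 and from GRCh38.p14 and were not converted, though the length of ERG was 295 kb in the rule and 294.5 kb in RefSeq.

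Around its listed 5′ end ERG had no peak at all. The gene body lies at 39.739 to 40.034 Mb of chromosome 21 on the minus strand, and no peak was called over 197 kb that ran from 143 kb inside the gene to 54.3 kb upstream of it. The CpG-rich outermost start shown above is the annotated start of that end. A start 75.7 kb inside the gene in RefSeq also fell, by its distance, in the part without peaks. At the opposite end of the gene stood a second strong peak of 17.8 kb (chr21:39745240-39762997, fold 10.9, rank 1755). It began 271 kb past the 5′ end and ended 6.24 kb short of the 3′ end. The other 13 peaks of ERG had folds of 2.13 to 4.15 and widths of 204 to 4381 bp. The 2 strong peaks therefore held 93.1% of the sum of fold times width over the ERG peaks, and the wide one alone 68.7%.

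FLI1, the closest relative of ERG in sequence, carried the mark at its 5′ end and through the first part of the gene. Its body lies at 128.556 to 128.683 Mb of chromosome 11 on the plus strand. A peak of 11.6 kb (chr11:128544636-128556250, fold 6.75) ran up to the listed 5′ end from upstream, passing it by 0.25 kb, which is less than the 1 kb to which gene ends are given. The highest fold of the gene, 8.80, was that of a peak of 12.2 kb (chr11:128560655-128572835, rank 4712) starting 4.66 kb inside. The widest was a peak of 29.7 kb (chr11:128581992-128611703, fold 7.41), rank 6 by width among the 2484 peaks of chromosome 11.

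Folds at FLI1 were lower past the first part of the gene. Past the 29.7 kb peak, which ended 55.7 kb from the 5′ end, 5 further peaks in the gene had folds of 2.59 to 3.88. The highest of these was at the most distal of the 5, so the fall was not steady. The last 27.6 kb of the gene held no peak. Upstream of the 5′ end, a peak of 12.4 kb had a fold of 3.66. Only 2 of the 11 FLI1 peaks had a fold below 3, against 11 of 15 at ERG. No FLI1 peak reached a fold of 10, yet 4 were 10 kb or wider, more than at any other of the 7 genes. RefSeq lists the noncoding RNA gene SENCR and LOC101929538 as overlapping FLI1, so peaks there cannot be assigned to FLI1 alone.

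**Figure D2:**
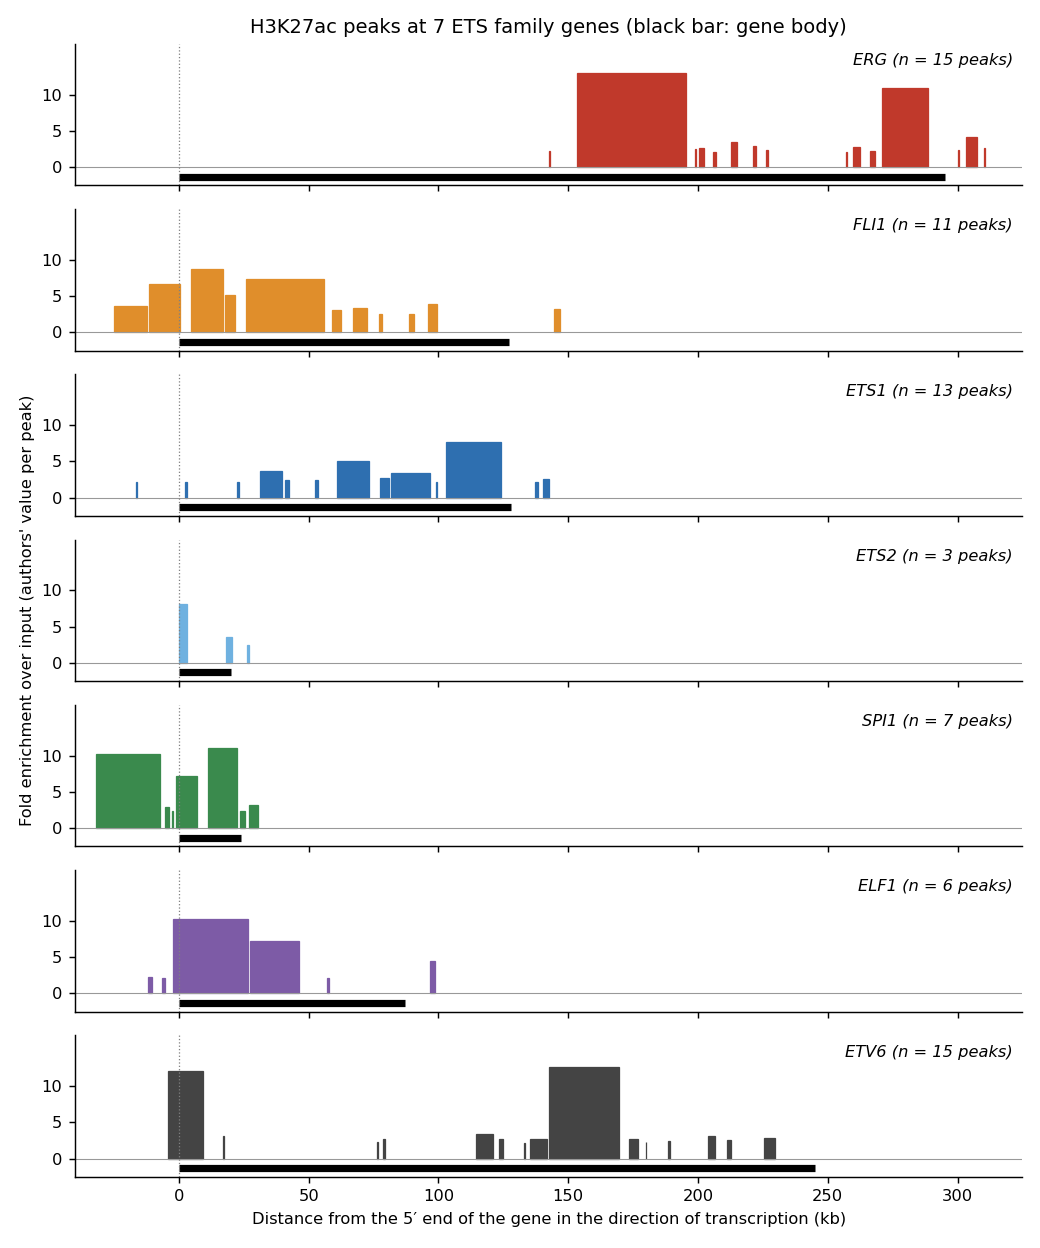
Peaks at the 7 ETS genes, drawn to scale along the direction of transcription (x, kb from the 5′ end of the gene body) with the fold enrichment over input as height; black bars are gene bodies. ERG is bare for 143 kb from its 5′ end and has its 41.8 kb peak inside the gene, while ELF1, ETV6, SPI1, FLI1 and ETS2 have a peak at 0.

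ETS1, a factor of T-cell, natural killer and B-cell development and the neighbour of FLI1, had its strongest peak far from its 5′ end. The gene body lies at 128.329 to 128.457 Mb of chromosome 11 on the minus strand, head to head with FLI1. The nearest peak to its 5′ end was 2.35 kb inside the gene, only 586 bp wide, with a fold of 2.18. The strongest was at the far end of the gene, 103 to 124 kb past the 5′ end (chr11:128332735-128353987, 21.3 kb, fold 7.67, rank 7321). Between them lay a peak of 12.4 kb (chr11:128383805-128396183, fold 5.09) at 60.8 to 73.2 kb from the 5′ end, and one of 14.8 kb with a fold of 3.38 at 81.9 to 96.7 kb. Near the listed 5′ end the mark was thus weak, and it was stronger in the distal part of the gene. No start sites were available for ETS1, so whether an inner peak lies at a further start was not determined. Of the 13 peaks, 9 had a fold below 3, and none reached 10. RefSeq lists ETS1-AS1, the microRNA gene MIR6090 and further loci as overlapping ETS1.

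The 99 kb between the 5′ ends of ETS1 and FLI1 were covered to a similar share as the genes themselves. Peaks covered 48.8% of this space, against 50.6% of the body of ETS1 and 48.5% of that of FLI1. The 8 peaks there that lay outside the 20 kb flanks, and so are not among the 70, had folds of 2.12 to 7.60. The strongest (chr11:128478480-128484028, 5549 bp) began 1.48 kb outside the ETS1 window, and the widest (chr11:128489536-128503869, 14.3 kb, fold 4.36) was next by fold. The ETS1 peak just inside the same edge was 510 bp wide with a fold of 2.13, so the 20 kb limit left a strong peak out. When peaks within 12.5 kb were joined, the upstream ETS1 flank, this space and most of FLI1 formed 1 region of 182 kb with 19 peaks.

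**Figure D3:**
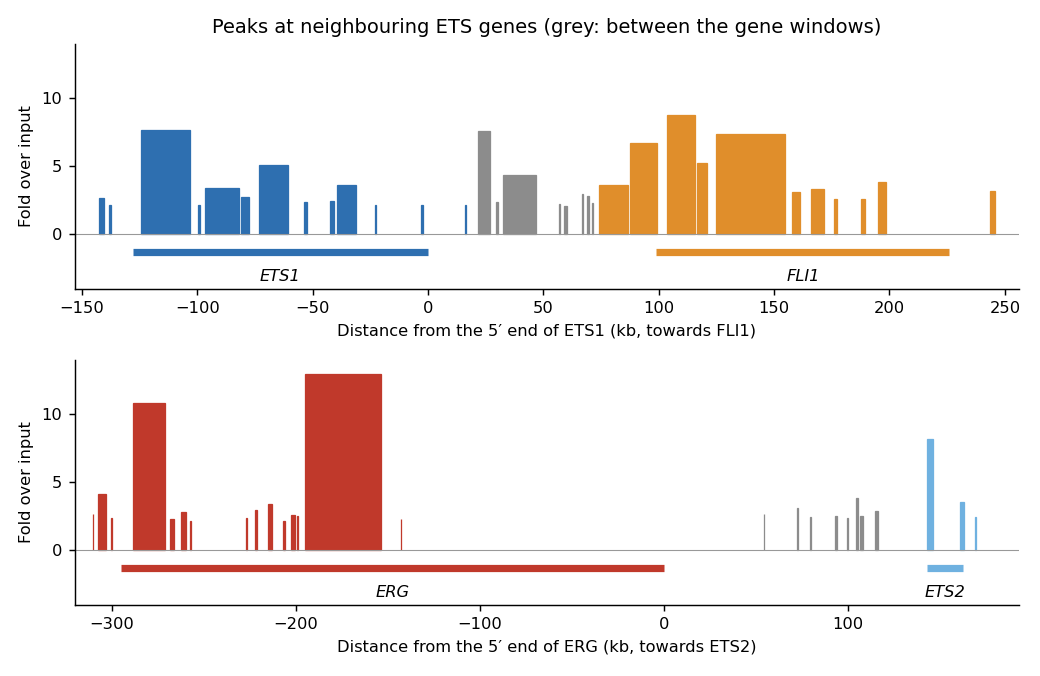
Fold enrichment over input of peaks at the neighbouring pairs ETS1 and FLI1 (top) and ERG and ETS2 (bottom), by distance in kb from the 5′ end of the left gene; grey peaks lie outside the 20 kb flanks of both genes, and coloured lines are gene bodies. The space between ETS1 and FLI1 holds a grey peak with a fold of 7.60, while no grey peak between ERG and ETS2 exceeds 3.87.

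ERG and ETS2 are neighbours on chromosome 21 in the same head-to-head order, and the space between them looked different. Peaks covered 5.05% of its 143 kb, against 4.44% of the full length of chromosome 21, unsequenced bases included. The 8 peaks outside the flanks had folds of 2.40 to 3.87, and the widest was 1487 bp. This share was near that of the chromosome, while the share between ETS1 and FLI1 (48.8%) stood above the 5.70% of chromosome 11.

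ETS2, the shortest of the 7 genes, had the fewest peaks, 3, and the least sequence in peaks, 6.58 kb. Its body of 20 kb lies at 40.177 to 40.197 Mb of chromosome 21 on the plus strand. A peak of 3358 bp at the 5′ end (chr21:40176896-40180253) had a fold of 8.18, rank 6045, and reached 3.25 kb into the gene. It was narrow for a peak of that strength among these genes, and no ETS2 peak reached 10 kb. The 2 other peaks lay at the 3′ end of the gene (fold 3.58, 2336 bp) and downstream of it (fold 2.49, 883 bp). The peak at the 5′ end held 72.2% of the sum of fold times width over the ETS2 peaks.

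SPI1 was marked over most of its length, upstream as well as inside. The gene, 24 kb long, lies at 47.376 to 47.400 Mb of chromosome 11 on the minus strand, and peaks covered 76.5% of it. A peak of 8018 bp (chr11:47393107-47401124) sat on the 5′ end with a fold of 7.22. A stronger peak of 11.1 kb (chr11:47377592-47388711, fold 11.0, rank 1632) lay 11.3 to 22.4 kb inside the gene, towards its 3′ end. The widest was upstream, 7.20 to 32.0 kb from the 5′ end (chr11:47407203-47431953, 24.8 kb, fold 10.3), rank 11 by width on chromosome 11.

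The upstream peak alone held 55.7% of the sum of fold times width over the SPI1 peaks. SPI1 is known to be driven by an upstream regulatory element in human and mouse blood cells, whose position was not looked up here. The next protein-coding gene on that side is SLC39A13, on the opposite strand in RefSeq, so the upstream peak cannot be assigned to SPI1 by position alone. On the 3′ side, next to MYBPC3, the SPI1 window held peaks of low fold only (3.21 and 2.39). The first peak beyond the window on the upstream side lay 26.0 kb outside it, with a fold of 10.9 over 2604 bp.

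ELF1 had nearly all of its mark in a pair of adjoining wide peaks from the 5′ end. The gene body lies at 41.506 to 41.593 Mb of chromosome 13 on the minus strand. The peak on the 5′ end (chr13:41566469-41595412, 28.9 kb, fold 10.3, rank 2381) reached from 2.41 kb upstream to 26.5 kb inside the gene. It was the widest of the 1460 peaks of chromosome 13 and ranked 170 by width in the genome. The second peak followed after 979 bp and was 18.8 kb wide (chr13:41546702-41565489, fold 7.18). Together they held 96.6% of the sum of fold times width over the ELF1 peaks, and the remaining 4 peaks had folds of 2.06 to 4.43.

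The 3′ part of ELF1 was bare, with no peak over 29.3 kb at that end of the body. The strongest of its weak peaks (fold 4.43, 1911 bp) lay 9.57 kb past the 3′ end. The gene was 87 kb long in the rule and 129 kb in RefSeq in GRCh38.p14. At which end the models differ was not determined, so the outermost RefSeq start of ELF1 need not be the 5′ end used here, and its sequence is not shown. WBP4 is the next protein-coding gene on the 5′ side and lies on the opposite strand in RefSeq.

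ETV6 carried strong peaks at its 5′ end and deep inside the gene. The gene body, 245 kb, lies at 11.803 to 12.048 Mb of chromosome 12 on the plus strand. The peak on the 5′ end (chr12:11798713-11812133, 13.4 kb) had a fold of 12.2, rank 875, the highest of the 5 genes with a peak there. The inner peak (chr12:11945755-11972737) was slightly stronger and wider, with a fold of 12.6, rank 687, over 26983 bp, from 143 to 170 kb past the 5′ end. On chromosome 12, with 2668 peaks, it was 9 in rank by width.

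Between and beyond these 2 peaks the mark at ETV6 was weak. The other 13 peaks had folds of 2.16 to 3.34, and the longest stretch without a peak was 58.9 kb, beginning 17.4 kb from the 5′ end. The widest of the weak peaks measured 6452 and 6323 bp. ETV6 and ERG, the longest of the 7 genes, thus shared a pattern of 15 peaks of which only 2 had a fold of 6 or more, with an inner peak far from the 5′ end as the strongest. ETS1 was similar, with 1 of its 13 peaks at a fold of 6 or more, also far inside the gene. ETV6 and ERG differed at the 5′ end, where ETV6 had a peak and ERG none.

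A peak lay within 1 kb of the 5′ end at 5 of the 7 genes, with folds of 12.2 at ETV6, 10.3 at ELF1, 8.18 at ETS2, 7.22 at SPI1 and 6.75 at FLI1. The exceptions were ETS1 and ERG. These 5 peaks had a median fold of 8.18 and a median width of 11.6 kb. The 48 other peaks centred in gene bodies had a median fold of 2.76, but 4 of them had a fold of 10 or more, against 2 of the 5 at 5′ ends. Of the 7 upstream peaks only that of SPI1 reached 10, and the 10 downstream peaks stayed between 2.18 and 4.43. The peak of highest fold was the one at the 5′ end at ELF1 and ETS2, and an inner one at the other 5 genes. The gene ends carry no exon structure here, so inner peaks were not sorted into exons, introns or further start sites.

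**Figure D4:**
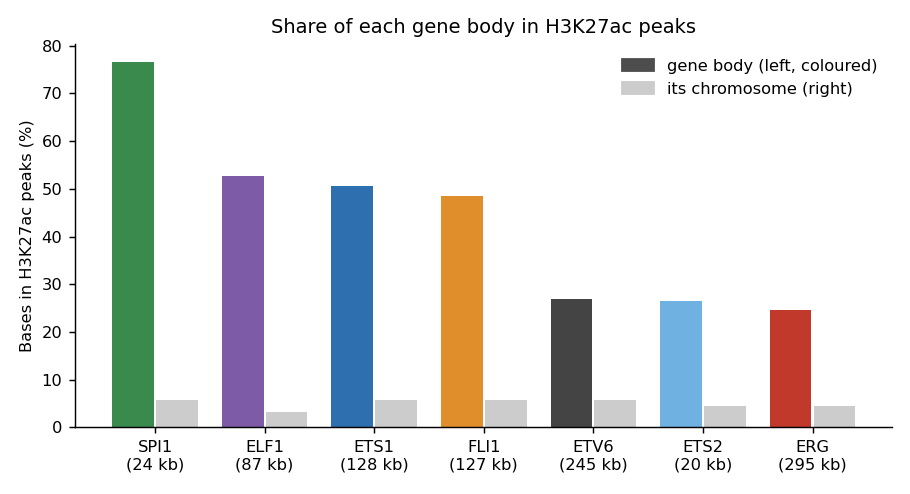
Share of bases in H3K27ac peaks in each gene body (left, coloured) and on its chromosome (right, grey). With all deposited peaks SPI1 has the highest share, 76.5%, and ERG the lowest, 24.6%, and each gene stands above its chromosome.

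With all deposited peaks, each of the 7 windows was denser in peaks than its chromosome. The density ran from 4.48 per 100 kb at ERG (1.30 on chromosome 21) to 10.9 at SPI1 (1.84 on chromosome 11). Peaks with a -log10 q of 10 or more numbered 4 at FLI1, 3 each at SPI1 and ELF1 and 1 at ETS2. ETV6, ETS1 and ERG had 2 each, at ERG in a window of 335 kb, and densities were not computed at this threshold. All deposited peaks together covered 36.1% of the 926 kb of the 7 gene bodies, against 4.90% of the genome. By gene the share was 76.5% at SPI1, 52.7% at ELF1, 50.6% at ETS1, 48.5% at FLI1, 26.9% at ETV6, 26.4% at ETS2 and 24.6% at ERG. The chromosomes of these genes had 5.70% (chromosome 11), 3.20% (13), 5.71% (12) and 4.44% (21). Genes as a whole are richer in the mark than the sequence between them, and a share over all genes was not computed, so the comparison is with the chromosome only. Counting only peaks with a -log10 q of 10 or more, the share was 75.1% at SPI1, 52.1% at ELF1, 36.4% at FLI1, 26.3% at ETS1, 20.2% at ERG, 16.3% at ETS2 and 14.7% at ETV6. The lowest gene was then ETV6 and not ERG, as it was at a threshold of 5, where ETV6 had 14.7% and ERG 20.9%. At ETS1 the share was 44.3% at a threshold of 5, and peaks of 14.8 kb and 8.23 kb with folds of 3.38 and 3.62 were among those that the threshold of 10 removed.

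Joining peaks within 12.5 kb gave 25510 regions in the genome, which were ordered by fold times width summed over their peaks. The slope rule that sets off the steep end of the rank curve called 5.57% of them large. Of the 17 regions that touched an ETS gene window, 9 were large, and 6 of the 7 genes touched at least 1. The windows differed in length and the genes were chosen with such regions known, so the counts describe these genes only. The highest in rank was the region from the ETS1 flank through FLI1 (chr11:128473064-128655416, rank 89). It was followed by the inner ERG region (chr21:39807095-39891370, 84.3 kb, rank 119), the SPI1 region (chr11:47369619-47431953, 62.3 kb, rank 193) and the ELF1 region (chr13:41535254-41604838, 69.6 kb, rank 216). The inner ETV6 region (chr12:11917565-11992263, 74.7 kb) ranked 270 and that in the body of ETS1 (chr11:128332735-128434550, 102 kb) ranked 387. ETS2 was the exception, and its 5′ region ranked 8002. The ERG region ranked ahead of the FLI1 region in 4 of 5 alternatives, at 67 against 83 with a -log10 q of 5 or more, 52 against 111 with 10 or more, 65 against 85 when joining within 5000 bp and 69 against 85 without peaks of a fold below 3. Ranked by width alone, the FLI1 region stood at 39 and the ERG region at 303. Under the threshold of 10 on -log10 q, ETS1 also lost its place, its best region being 21.3 kb long at rank 955.

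The order of the genes depended on whether the strongest peak was measured by fold or by an implied ChIP level. Fold is the ratio of ChIP to the local input, and the deposited pileup could not be used, so the ChIP and input levels were solved for each peak from its fold and its p-value, in fragments per position. By fold the order was ERG (13.0), ETV6 (12.6), SPI1 (11.0), ELF1 (10.3), FLI1 (8.80), ETS2 (8.18) and ETS1 (7.67). By the implied ChIP level it was ERG (149), ELF1 (130), SPI1 (94.6), ETS1 (94.3), ETV6 (86.9), FLI1 (85.6) and ETS2 (63.8). At 2 genes the peak itself changed. At FLI1 the highest ChIP level was at the 5′ end, with 85.6, against 83.4 at the inner peak of highest fold, and at SPI1 it was that of the upstream peak, with 94.6, against 87.9 at the inner peak. ERG stayed first, and its 41.8 kb peak ranked 73 in the genome by this level. ELF1 came second at rank 260, and ETS1, the last by fold, was the fourth by this level. The values of SPI1 and ETS1, and of ETV6 and FLI1, lay close together, and without replicates their order is not established.

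The input level beside these folds differed between the loci. Its median over the peaks of a gene was 4.40 at ETV6, 4.73 at SPI1, 5.57 at ERG, 6.78 at ETS2, 6.93 at ETS1, 7.95 at ELF1 and 8.39 at FLI1, against 6.33 over all peaks. The order depended on the weak peaks. With peaks of fold 3 or more only, the medians were 4.83 at ETV6, 6.41 at SPI1, 6.85 at ETS2 and 8.06 at ERG. They were 8.57 at FLI1, 9.09 at ETS1 and 11.8 at ELF1. Over all ETV6 peaks the level ran from 4.11 to 5.96, close to the floor of 4.11 that the caller sets, while chromosome 12 had a median of 6.52. The 143 other peaks within 2.5 Mb of ETV6 had a median of 5.45. Among peaks with a fold below 3 alone, ETV6 had 4.28 over 10 peaks, against 5.58 on chromosome 12. This was not particular to ETV6. On chromosome 11 (5.37) such peaks had 4.34 at SPI1 (3 peaks), 4.42 at FLI1 (2) and 6.43 at ETS1 (9). On chromosome 21 (5.39) they had 4.90 at ERG (11) and 5.60 at ETS2 (1), and on chromosome 13 (6.60) 5.91 at ELF1 (3). At the peaks of highest fold the input level was 5.96 at ETV6, 6.92 at ETS2, 7.08 at SPI1, 8.58 at FLI1, 10.5 at ERG, 11.4 at ETS1 and 11.8 at ELF1. The order by this level was not the reverse of that by fold: ETS2 was second lowest in both, and ERG had the highest fold at a level of 10.5. A low input level raises the fold of a peak of the same height, and the part of the input in the high folds of ETV6 was not tested.

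**Figure D5:**
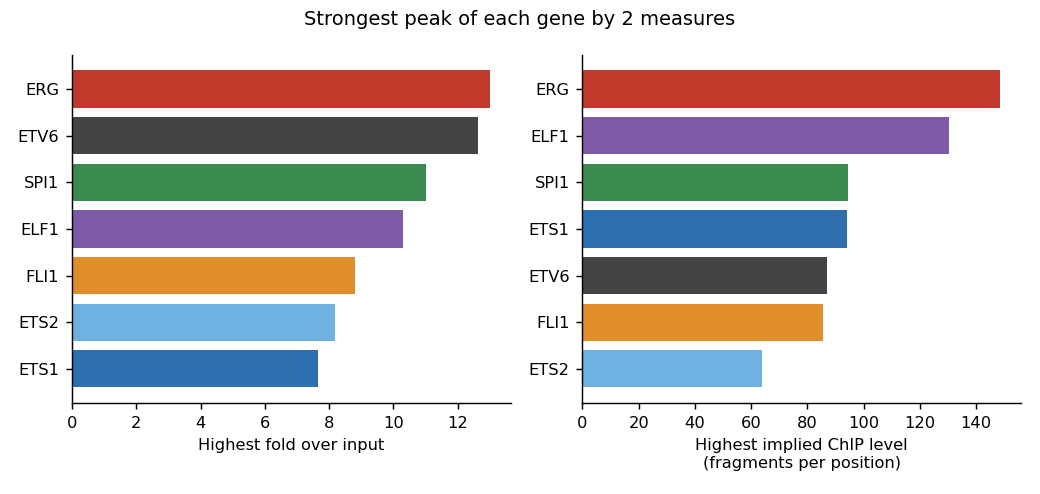
Strongest peak of each of the 7 genes by fold enrichment over input (left) and by the implied ChIP level in fragments per position (right), each panel sorted from high to low. ERG is first in both, with 13.0 and 149, while ETV6 is the second on the left and the fifth on the right, and ETS1 is the lowest on the left and the fourth on the right.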

How the data were processed

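The submitters' processing notes name hg19, Bowtie2 and MACS2, with no Bowtie2 version given in the sources used here. The authors ran MACS2 2.1.0.20140616 in broad mode on 1 ChIP library against 1 input library, per the file headers. Tags of 84 bp were extended to 204 bp, 1 tag was kept per position, which dropped 13.2% of ChIP and 3.07% of input tags and limits the height of the strongest peaks, and the q cutoff was 0.05.

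The deposited fold is a ratio of ChIP to the local control, and the deposited -log10 values of p and q come from the caller, 1 per broad peak. All 52203 deposited pileup values were below 0 and were left out.

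Gene bodies came from the rule that defined the 7 genes, given to 1 kb in hg19. A peak counted if it overlapped the body or 20 kb on either side by 1 bp or more. The 5′ end was the body's end by strand, taken from RefSeq for 4 genes and from general knowledge for the others. RefSeq tables of GRCh38.p14 served for sequences, gene lengths and neighbours only, and no coordinates were converted. Chromosome lengths were the full lengths of hg19, unsequenced bases included. Shares and densities given for chromosomes and the genome are thus lower than over sequenced bases alone. Peaks within 12500 bp were joined, ranked by fold times width, and called large past the point where the rank curve on the unit square has slope 1. The implied input level solves fold and Poisson p-value, with 1 added to both levels. It is approximate for broad peaks, and 200 peaks with a level above 20 were left out of its medians and ranks. The solving step was checked only on levels simulated with the same formula. That check covers the arithmetic and cannot show how well the formula fits these peaks.

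The members, lists and settings were chosen with earlier results of these data known. All 7 genes were named, with their strongest, widest and 5′-end peaks and every peak of fold 10 or more. Other peaks were named after their values were seen. Other ETS genes were not analysed here, since no hg19 annotation was used. Alternatives were thresholds on q, flanks, overlap, the 5′ window, the joining distance and the ranking value. With 1 library pair no test was made. Calculations were made in scipy 1.17.1, pandas 2.3.3 and numpy 2.4.6 under Python 3.11.15, with figures by matplotlib 3.10.9.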

Additional observations from a re-analysis of the deposited data

How the results depend on the processing

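The number of peaks at ETS genes depended on the threshold, being 70 as deposited, 26 with -log10 q of 5 or more and 17 with 10 or more, where the weak peaks were removed. The covered share of the gene bodies was 36.1%, 30% and 26.1% under the same thresholds. The peaks numbered 54 with no flank, 94 with flanks of 50 kb and 70 by peak midpoint. The 7 peaks of fold 10 or more had a -log10 q of 58.7 or more, so the thresholds on q could not change their number. Peaks of this fold numbered 6 with no flank and 8 with 50 kb. A peak at the 5′ end was found at 5 genes within 1 or 2 kb and at 6 within 5 kb, where ETS1 was added by its 586 bp peak. Large regions touched 6 genes, except with -log10 q of 10 or more, where they touched 5, without ETS1. The median implied input level was 5.91 over all 70 peaks and 7.97 over those of fold 3 or more, and the cause was not tested. Of the 8 peaks between ETS1 and FLI1, 2 had -log10 q of 10 or more. That threshold for the space, the ranking by implied ChIP level, regions without peaks of fold below 3 and the count with this space added (78) were chosen after seeing the data. No paired analysis was possible because each group held a single library, and no replicate could be left out.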
